A study of Mus musculus with 407 samples.

Results

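The 10 genes described here encode enzymes and a chaperone that modify, fold and crosslink collagen: Lox, Loxl1, Loxl2, Loxl3, Loxl4, Plod1, Plod2, P4ha1, P4ha2 and Serpinh1. They were chosen by symbol out of 24458 gene symbols in the count tables, and all 10 were found and passed the filter on low counts in every muscle and sex. They were followed in RNA-seq libraries of 3 limb muscles (soleus, gastrocnemius and tibialis anterior) and the diaphragm of female and male C57BL/6J mice at 6 ages: 6 and 12 months, 18 and 21 months, and 24 and 27 months. Each library came from 1 muscle of 1 mouse, and the 48 groups of muscle, sex and age held 6 to 10 libraries each, 407 in all. The labels name no engineered allele and no treatment, and age, sex and muscle were the variables they give.

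Collagen chains are modified inside the endoplasmic reticulum before they are secreted. Prolyl hydroxylases, whose catalytic alpha subunits are encoded by P4ha1 and P4ha2, hydroxylate prolines and so stabilise the triple helix. Lysyl hydroxylases, here Plod1 and Plod2, hydroxylate lysines; Plod2 acts in the telopeptides and thereby sets which kind of crosslink forms later. Serpinh1 encodes a chaperone that binds the folded procollagen helix. Outside the cell, the copper-dependent lysyl oxidases, Lox and Loxl1 to Loxl4, oxidise lysine and hydroxylysine side chains, from which the covalent crosslinks of collagen and elastin fibres form. In muscle, most of these genes are known from fibroblasts of the connective tissue, while hydroxylases are also expressed in other cells.

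Libraries held between 38583802 and 300089909 counts on genes, with a median of 72766895, and even the lowest library count of any of these genes was 33, for Loxl3. A set of 8 libraries stood apart by the GC content of the transcripts they were rich or poor in. In each library the log2 CPM of every gene (CPM being a gene's count as a share of its library's total, scaled in the usual counts-per-million way) was set against the median of its own muscle and sex, and the mean deviation of 1842 GC-rich genes (above 55% GC) minus that of 1195 GC-poor genes (below 42%) was taken. This difference lay between -0.4 and 0.5 in 399 libraries. It was -3.83 in the male diaphragm library of 6 months, replicate 2, and -2.14 in that of 27 months, replicate 6. In the female diaphragm it was -2.73 at 6 months (replicate 2), -2.38 at 21 months (replicate 0), -1.42 at 24 months (replicate 3) and -3.06 at 27 months (replicate 0). Among gastrocnemius libraries it was 1.11 in the female library of 27 months, replicate 0, and 1.23 in the male library of 12 months, replicate 7. These 8 are called the GC-skewed libraries, and results that rest on them are given with and without them. Levels given from here on are CPM with library totals further scaled by the TMM method, except the liver sums of single libraries. Some of these genes were far from their groups in some of them: Plod1 had 2.62 CPM in the male diaphragm library of 6 months, where the next lowest library had 27.4.

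The labelled muscles were checked with markers. Genes of skeletal muscle fibres summed to at least 35700 CPM in every library of 6 months, and markers of the mesothelium, the lining that covers the diaphragm, summed to 87.1 to 253 CPM in the diaphragm and at most 3.08 CPM in the limb muscles. Liver markers summed to more than 100 CPM and more than 10 times the median of their muscle and sex in 36 libraries, most of all in the male diaphragm at 21 months, replicate 3 (33100 CPM), and at 27 months, replicate 6 (11810 CPM). In bulk RNA, fewer cells of a type and less RNA per cell cannot be told apart. Mice of different ages were separate animals bought at those ages, so age and cohort cannot be told apart either.

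At 6 months, with 16 libraries of each muscle, Serpinh1 had the highest level per length of transcript in every muscle and Loxl3 and Loxl4 had the lowest. As CPM per kilobase of the longest transcript, Serpinh1 was at 51.4 ± 17.3 in the diaphragm, 27.5 ± 4.09 in the soleus, 21.1 ± 3.44 in the gastrocnemius and 20.0 ± 3.2 in the tibialis anterior (mean ± SD, n = 16). The collagen chaperone was thus above the next gene of the set in every muscle, in the diaphragm with single libraries from 13.9 to 74.7. The crosslinking enzymes Lox, Loxl1 and Loxl2 lay between 3.39 (Loxl1, tibialis anterior) and 10.5 (Loxl1, diaphragm), and Loxl3 and Loxl4 reached as low as 0.534 and 0.625 in the tibialis anterior. The hydroxylases Plod1 and P4ha1 lay between 5.28 and 9.14, while their relatives Plod2 and P4ha2 lay between 1.35 and 5.21. Neighbours in this order, such as Lox (8.74 ± 2.59), P4ha1 (8.69 ± 2.47) and Plod1 (8.6 ± 3.11) in the diaphragm, lay within their spread.

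**Figure D1:**
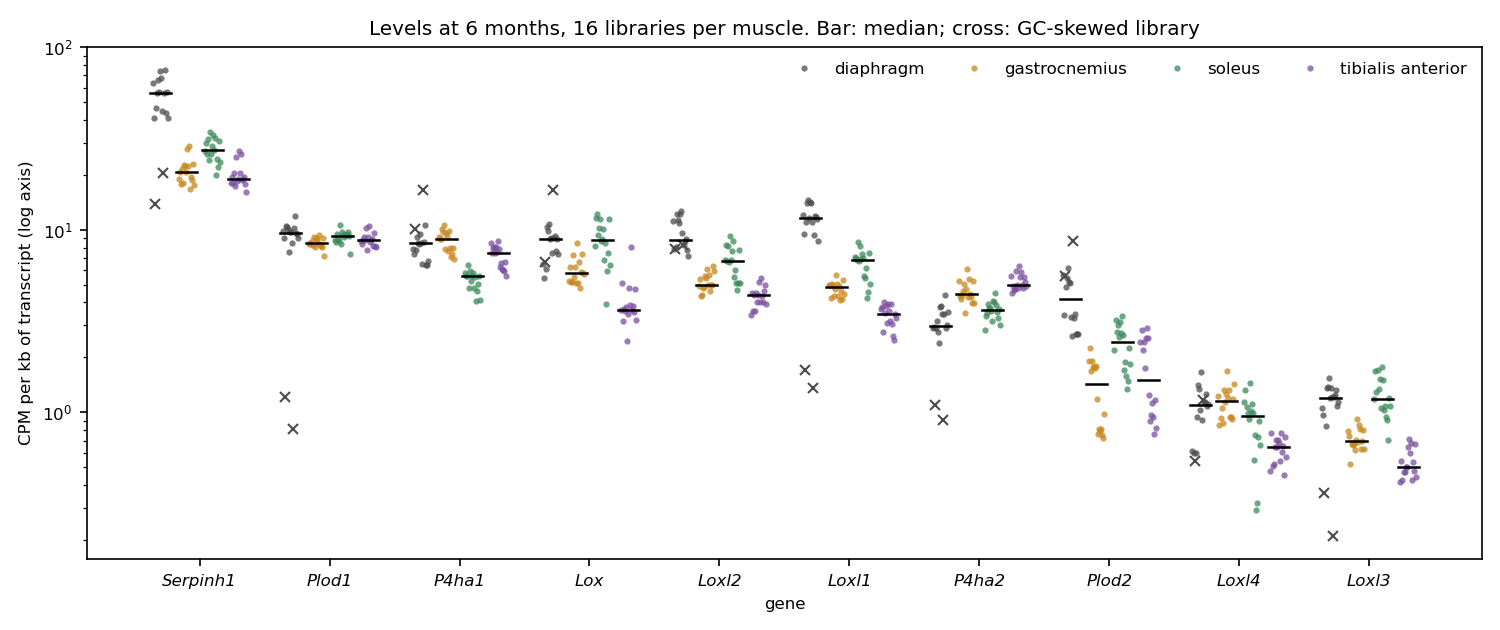
Level of the 10 genes at 6 months as CPM per kilobase of the longest transcript (log axis) in the 4 muscles, with a point for each of 16 libraries per muscle, a bar at the median and a cross for GC-skewed libraries. Serpinh1 is highest in each muscle, with means from 20.0 to 51.4, and Loxl3 and Loxl4 are lowest.

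In RefSeq annotation of GRCm38.p6 the genes are spread over the genome rather than clustered. Loxl2 lies on chromosome 14 (69608692 to 69695834, plus strand), Loxl1 on chromosome 9 (58287723 to 58313212, minus strand), Loxl3 on chromosome 6 (83034205 to 83052566, plus strand) and Loxl4 on chromosome 19 (42592279 to 42612806, minus strand). Plod1 lies on chromosome 4 (147909753 to 147936776, minus strand) and Plod2 on chromosome 9 (92539636 to 92608428, plus strand). P4ha1 lies on chromosome 10 (59323197 to 59373304, plus strand), P4ha2 on chromosome 11 (54100924 to 54131668, plus strand) and Serpinh1 on chromosome 7 (99345375 to 99353239, minus strand). Counts were made on gene models, so all values describe whole genes and not single exons or isoforms.

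The first comparison asked how the muscles differ in young adult mice. Differences are log2 fold changes with their standard error (SE) from edgeR's quasi-likelihood test on counts, and a gene is called at a Benjamini-Hochberg adjusted p below 0.05 over all genes tested. Libraries of different muscles were taken as independent, since the labels do not tie muscles to mice. Muscles of the same mouse may be among them, which these p-values leave out of account. Of the 60 tests (10 genes in 6 pairs of muscles), 46 were called, and 51 without the GC-skewed libraries. Between diaphragm and gastrocnemius 7 of the 10 genes were called, where 78.2% of all genes were; between soleus and diaphragm 6, against 66.3%; between soleus and gastrocnemius 9, against 60.5%. Between tibialis anterior and diaphragm 9 were called, against 79.7% of all genes; between tibialis anterior and gastrocnemius 6, against 26.8%; between tibialis anterior and soleus 9, against 63.8%. The share of the 10 genes was below that of all genes in both comparisons of the diaphragm with the gastrocnemius and the soleus and above it in the other 4 pairs, and these shares were not tested against each other.

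Among the crosslinking enzymes, Loxl1 and Loxl2 were highest in the diaphragm and all 5 were lowest in the tibialis anterior. Loxl1 was higher in the diaphragm than in the gastrocnemius by 1.18 ± 0.15 (SE), or 2.27-fold, with an adjusted p of 3.91e-10. Loxl2 was higher there by 0.92 ± 0.09, or 1.89-fold (adjusted p 7.19e-15). Lox did not differ by a called amount between soleus and diaphragm (-0.01, 95% interval -0.27 to 0.24). In the tibialis anterior, Loxl1 was lower than in the diaphragm by 1.68, Lox by 1.17 and Loxl3 by 1.08 on the log2 scale. Without the GC-skewed libraries the difference of Loxl1 was -1.84, larger than that of Plod2 between diaphragm and gastrocnemius. Loxl4 was not called between diaphragm and gastrocnemius (-0.1, interval -0.39 to 0.19).

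The lysyl hydroxylase Plod2 was 1.84 (3.59-fold) higher in the diaphragm than in the gastrocnemius, or 1.66 without the GC-skewed libraries, and Serpinh1 was 1.32 (2.5-fold) higher. The prolyl hydroxylases went another way. P4ha2 was lowest in the diaphragm, -0.6 against the gastrocnemius, and highest in the tibialis anterior, 0.77 above the diaphragm. P4ha1 was lowest in the soleus, -0.71 against the gastrocnemius and -0.76 against the diaphragm. Plod1 was called in none of the 6 pairs when all libraries were used, with differences from -0.06 to 0.11.

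The GC-skewed libraries moved some of these calls. Without them Plod1 was called in 4 pairs: 0.22 (adjusted p 5.03e-06) higher in the diaphragm than in the gastrocnemius, -0.11 (adjusted p 0.0159) in the soleus against the diaphragm, where the difference was 0.06 with all libraries, 0.11 (adjusted p 0.0179) in the soleus against the gastrocnemius and -0.17 (adjusted p 0.000248) in the tibialis anterior against the diaphragm. The call of P4ha2 between soleus and diaphragm was lost (adjusted p 0.0615), and between tibialis anterior and gastrocnemius 8 genes were called in place of 6, P4ha2 (0.17) and Plod2 (0.31) among them. Fibroblast markers had the order of Loxl1 and Loxl2 between muscles, and not that of P4ha1 or P4ha2. Of these 12 markers, 10 were higher in the diaphragm than in the gastrocnemius (median difference 1.2). In the tibialis anterior 12 of 12 were lower than in the diaphragm (-1.69), and against the gastrocnemius 9 were lower and 1 higher. Their summed level at 6 months ran from 1810 to 3220 CPM in the diaphragm and from 678 to 1200 CPM in the tibialis anterior, with none of the 12 at 0. Tendon markers did not share this order, with 5 of 8 lower and 0 higher in the diaphragm than in the gastrocnemius. Their part in the differences between muscles was not tested.

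Promoter sequence was held for 5 of the 10 genes (Plod1, Serpinh1, P4ha1, P4ha2 and Loxl4). The windows of Serpinh1, highest in the diaphragm, and P4ha2, lowest there, are shown because these 2 genes of the endoplasmic reticulum went opposite ways between muscles. Both are the bases just before the annotated start in RefSeq's GRCm38.p6, 5′ to 3′ on the gene's strand, for Serpinh1 chr7:99353240-99353489 (minus strand) and for P4ha2 chr11:54100674-54100923 (plus strand). Capitals mark matches, on either strand, to ACGTG, a form of the core of the hypoxia response element, or to the heat shock element TTCNNGAA. Other forms of that core, such as GCGTG, were not searched for.
Serpinh1 promoter: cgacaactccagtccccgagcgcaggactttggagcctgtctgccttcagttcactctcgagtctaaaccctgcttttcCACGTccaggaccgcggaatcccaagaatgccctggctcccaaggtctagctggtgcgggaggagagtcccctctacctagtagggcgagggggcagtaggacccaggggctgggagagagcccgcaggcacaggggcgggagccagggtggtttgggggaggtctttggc
P4ha2 promoter: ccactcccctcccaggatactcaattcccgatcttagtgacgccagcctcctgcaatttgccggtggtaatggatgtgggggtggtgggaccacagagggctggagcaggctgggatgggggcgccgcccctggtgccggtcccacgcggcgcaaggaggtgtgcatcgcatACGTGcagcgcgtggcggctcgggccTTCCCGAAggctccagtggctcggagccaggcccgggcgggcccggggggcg
The Serpinh1 window holds ACGTG 171 bases before the start, on the opposite strand and so printed as its reverse complement. The P4ha2 window holds ACGTG at 78 and TTCNNGAA at 52 bases before the start. Of 32851 promoter windows of mouse genes, 16.6% held ACGTG and 7.17% held TTCNNGAA. These letters were not found in the windows of Plod1 and Loxl4, nor in that of P4ha1, of which 151 bases were searched in place of 250, and a match is a description of the letters only.

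The second comparison set mice of 27 months against mice of 6 months in each muscle and sex. Over the 80 tests (10 genes in 8 combinations of muscle and sex), 19 were called lower and 0 higher, and without the GC-skewed libraries 21 were called lower and 0 higher. At an unadjusted p below 0.05 there were 30 lower and 4 higher, and neither DESeq2 nor limma-voom called a gene of the set higher. In female mice 4 genes were called lower in the gastrocnemius (14.6% of all genes tested were), 6 in the soleus (8.74%), 3 in the tibialis anterior (9.84%) and 0 in the diaphragm (0.988%). In male mice 2 were called lower in the gastrocnemius (12.6%), 1 in the soleus (1.05%), 3 in the tibialis anterior (7.81%) and 0 in the diaphragm (3.52%). Without the GC-skewed libraries, 2 were called lower in the female diaphragm (2.97%), 4 in the female gastrocnemius (14.9%), 0 in the male diaphragm (4.88%) and 2 in the male gastrocnemius (13.2%). The shares in the female gastrocnemius, soleus and tibialis anterior and the male tibialis anterior and soleus were above these backgrounds, and that in the male gastrocnemius was 2 of 10. The median change of the 10 genes ran from -0.29 (female soleus) to 0.04 (male diaphragm), beside medians of all genes from -0.026 to 0.028.

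**Figure D2:**
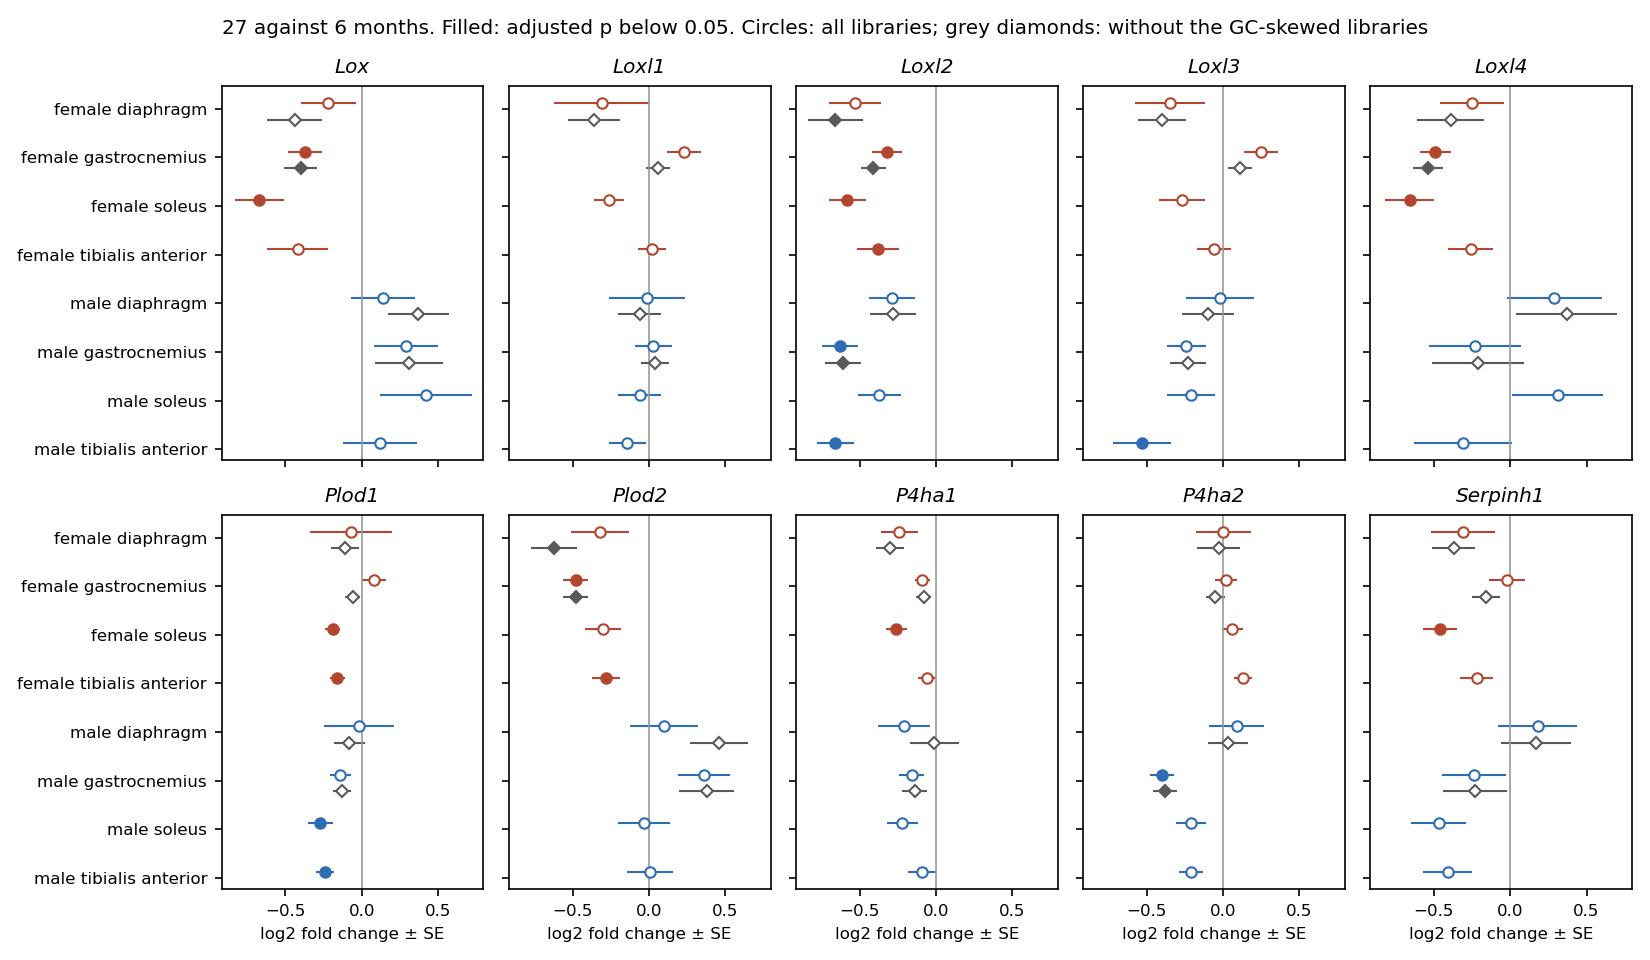
Log2 fold change at 27 against 6 months with its standard error for each of the 10 genes (panels) in the 8 combinations of muscle and sex. Filled points are called (adjusted p below 0.05), open points are not, and grey diamonds give the value without the GC-skewed libraries. Loxl2 lies below 0 in all 8 combinations, from -0.66 to -0.29, and no filled point lies above 0.

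Loxl2, which oxidises lysines of fibrillar and basement membrane collagen, was called in 5 of the 8 combinations, more than any other gene of the set. In the male tibialis anterior its levels ran from 20.9 to 28.8 CPM at 6 months (median 23.8, n = 8) and from 9.59 to 20.0 CPM at 27 months (median 15.3, n = 10). All 10 old libraries lay below all young ones. The change was -0.66 ± 0.12 (SE; adjusted p 5.4e-05). In the male gastrocnemius the levels were 24.5 to 33.5 CPM (median 28.3) and 9.7 to 28.1 CPM (median 18.8), a change of -0.63 ± 0.12 (adjusted p 0.000133), with 9 of 10 old libraries below every young one.

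Loxl2 also fell in 3 female limb muscles. In the soleus it went from 35.6 to 49.2 CPM at 6 months (median 38.6) to 19.9 to 37.0 CPM at 27 months (median 25.9), and 8 of 10 old libraries lay below all young ones (change -0.58 ± 0.12, adjusted p 0.000401). In the gastrocnemius it went from 23.1 to 29.8 CPM (median 26.0) to 15.8 to 33.3 CPM (median 20.2); the highest of the old libraries was GC-skewed, and without it the old range ended at 24.0 and the change went from -0.32 to -0.41 (adjusted p 0.00968 and 0.000134). In the tibialis anterior the change of -0.38 ± 0.14 was just past the threshold (adjusted p 0.0408), with 1 old library at 7.9 CPM, and leaving out single libraries ended that call in 10 of 18 cases, with adjusted p up to 0.0889. In the diaphragm the change was -0.53 in females (adjusted p 0.0885), and -0.66 (adjusted p 0.0222) without the GC-skewed libraries, where 6 of 9 old libraries lay below every young one. It was -0.29 in males (adjusted p 0.199), and -0.37 in the male soleus (adjusted p 0.152).

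**Figure D3:**
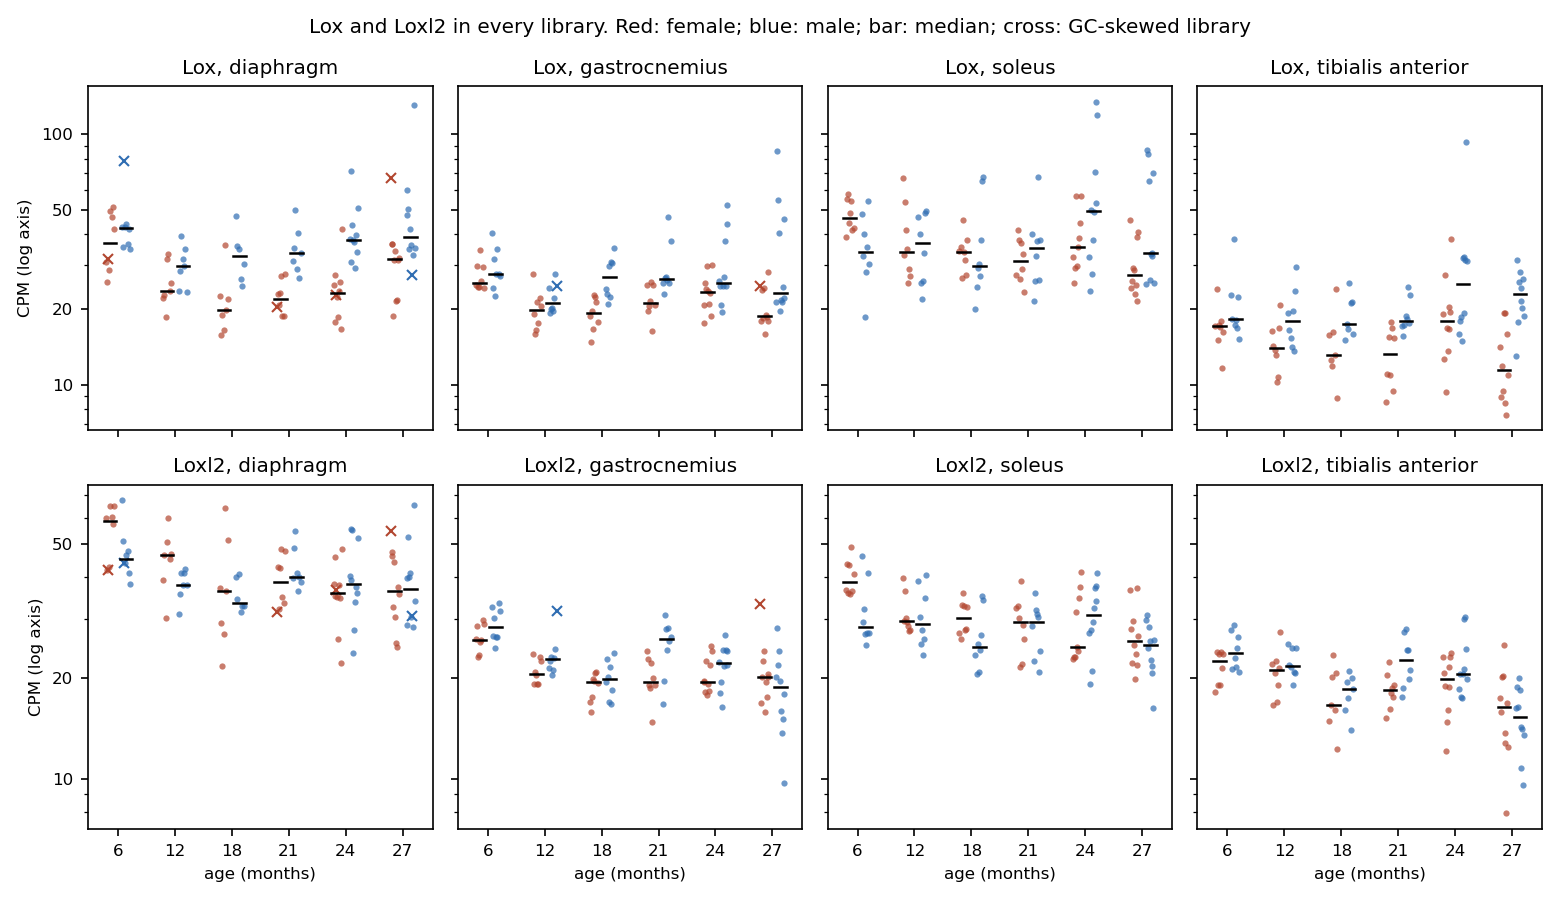
CPM of Lox and Loxl2 in every library by age in the 4 muscles, females in red and males in blue, with a bar at each group's median and a cross for GC-skewed libraries. Loxl2 in the male tibialis anterior goes from a median of 23.8 CPM at 6 months to 15.3 CPM at 27 months, while a few old male libraries reach 131 CPM (diaphragm) and 135 CPM (soleus) for Lox.

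Lox, the founding member of the family, was called lower in 2 female muscles and in no male one, while a difference in change between the sexes was not called in any muscle. In the female soleus Lox had 38.9 to 57.9 CPM at 6 months (median 46.5) and 21.7 to 45.3 CPM at 27 months (median 27.3), a change of -0.67 ± 0.16 (adjusted p 0.00251). In the female gastrocnemius it had 24.4 to 34.5 CPM (median 25.5) and 15.9 to 28.1 CPM (median 18.8), with 8 of 10 old libraries below all young ones (-0.37 ± 0.11, adjusted p 0.00947). The male changes ran from 0.12 (tibialis anterior) to 0.42 (soleus) and none was called. Old male groups were wide: in the soleus Lox ran from 23.8 to 135 CPM at 24 months (median 49.3) and from 25.2 to 86.3 CPM at 27 months (median 33.4), against 18.7 to 54.3 CPM at 6 months (median 34.0). The SD of log2 CPM in that muscle was 0.48 at 6 months, 0.84 at 24 months and 0.74 at 27 months.

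Loxl4 fell in the female gastrocnemius and soleus. In the gastrocnemius it went from 3.21 to 4.94 CPM at 6 months (median 4.09) to 2.14 to 3.87 CPM at 27 months (median 2.85), with 8 of 10 old libraries below all young ones (-0.49 ± 0.1, adjusted p 0.000297). In the soleus it went from 3.46 to 5.39 CPM (median 4.07) to 1.6 to 3.88 CPM (median 2.68; -0.66 ± 0.16, adjusted p 0.00272). In males no age was called, with changes at 27 months from -0.31 to 0.31 and standard errors from 0.3 to 0.32. In the soleus the change of Loxl4 was 0.98 lower in females than in males (-0.98, 95% interval -1.66 to -0.29), which was not called (adjusted p 0.146). Loxl3 was called in the male tibialis anterior alone, from 1.75 to 2.92 CPM (median 2.33) to 1.08 to 2.52 CPM (median 1.48; -0.53 ± 0.19, adjusted p 0.04), a call that 9 of 18 fits without a single library did not keep. Loxl1, the family member tied to elastic fibres, was called in none of the 8 combinations, with changes from -0.31 to 0.23.

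Among the lysyl hydroxylases, Plod2 had the clearest single change of the set. In the female gastrocnemius its levels were 6.15 to 8.29 CPM at 6 months (median 6.53) and 4.28 to 5.63 CPM at 27 months (median 4.85). The groups did not overlap, and the change was -0.48 ± 0.08 (adjusted p 9.85e-06). In the female tibialis anterior Plod2 went from 6.41 to 10.6 CPM (median 9.1) to 6.04 to 8.88 CPM (median 7.09; -0.28 ± 0.09, adjusted p 0.0265); 3 of 18 fits without a single library put it past 0.05, up to 0.0688. In the female soleus it was not called (-0.3, adjusted p 0.0581), while 5 such fits called it. In the female diaphragm it was not called with all libraries (-0.32, adjusted p 0.485), where the GC-skewed library of 27 months had 41.5 CPM where the next had 17.6. Without the GC-skewed libraries it went from 12.5 to 22.6 CPM (median 18.9, n = 7) to 7.57 to 17.6 CPM (median 12.5, n = 9; -0.62 ± 0.15, adjusted p 0.0102). No male muscle was called, with changes from -0.03 to 0.36.

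Plod1 changed by less but in more combinations of muscle and sex, with calls in the soleus and tibialis anterior of both sexes. In the male tibialis anterior it went from 26.2 to 33.9 CPM (median 28.0) to 20.3 to 29.9 CPM (median 23.4), a change of -0.24 ± 0.06 (adjusted p 0.00241), with 8 of 10 old libraries below all young ones. The change was -0.27 ± 0.08 in the male soleus (adjusted p 0.0356, lost in 11 of 18 fits without a single library, with adjusted p up to 0.0762), -0.19 ± 0.05 in the female soleus (adjusted p 0.00622) and -0.16 ± 0.05 in the female tibialis anterior (adjusted p 0.0097). In the female soleus the groups were narrow, with 27.0 to 34.3 CPM at 6 months and 23.6 to 30.2 CPM at 27 months, a fall to 0.875 of the young level.

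The prolyl hydroxylases and the chaperone had a call each. P4ha1 fell in the female soleus, from 19.3 to 25.8 CPM (median 22.6) to 17.1 to 21.4 CPM (median 18.9; -0.26 ± 0.07, adjusted p 0.00843), and its other changes ran from -0.24 to -0.06. P4ha2 fell in the male gastrocnemius, from 8.98 to 13.8 CPM (median 9.92) to 6.28 to 9.31 CPM (median 8.03; -0.4 ± 0.08, adjusted p 0.000182), with 9 of 10 old libraries below all young ones. Serpinh1 fell in the female soleus, from 54.9 to 77.9 CPM (median 63.3) to 39.1 to 60.6 CPM (median 45.8; -0.46 ± 0.11, adjusted p 0.00132). In the male soleus and tibialis anterior its changes of -0.47 and -0.41 were of like size and were not called (adjusted p 0.147 and 0.0652).

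**Figure D4:**
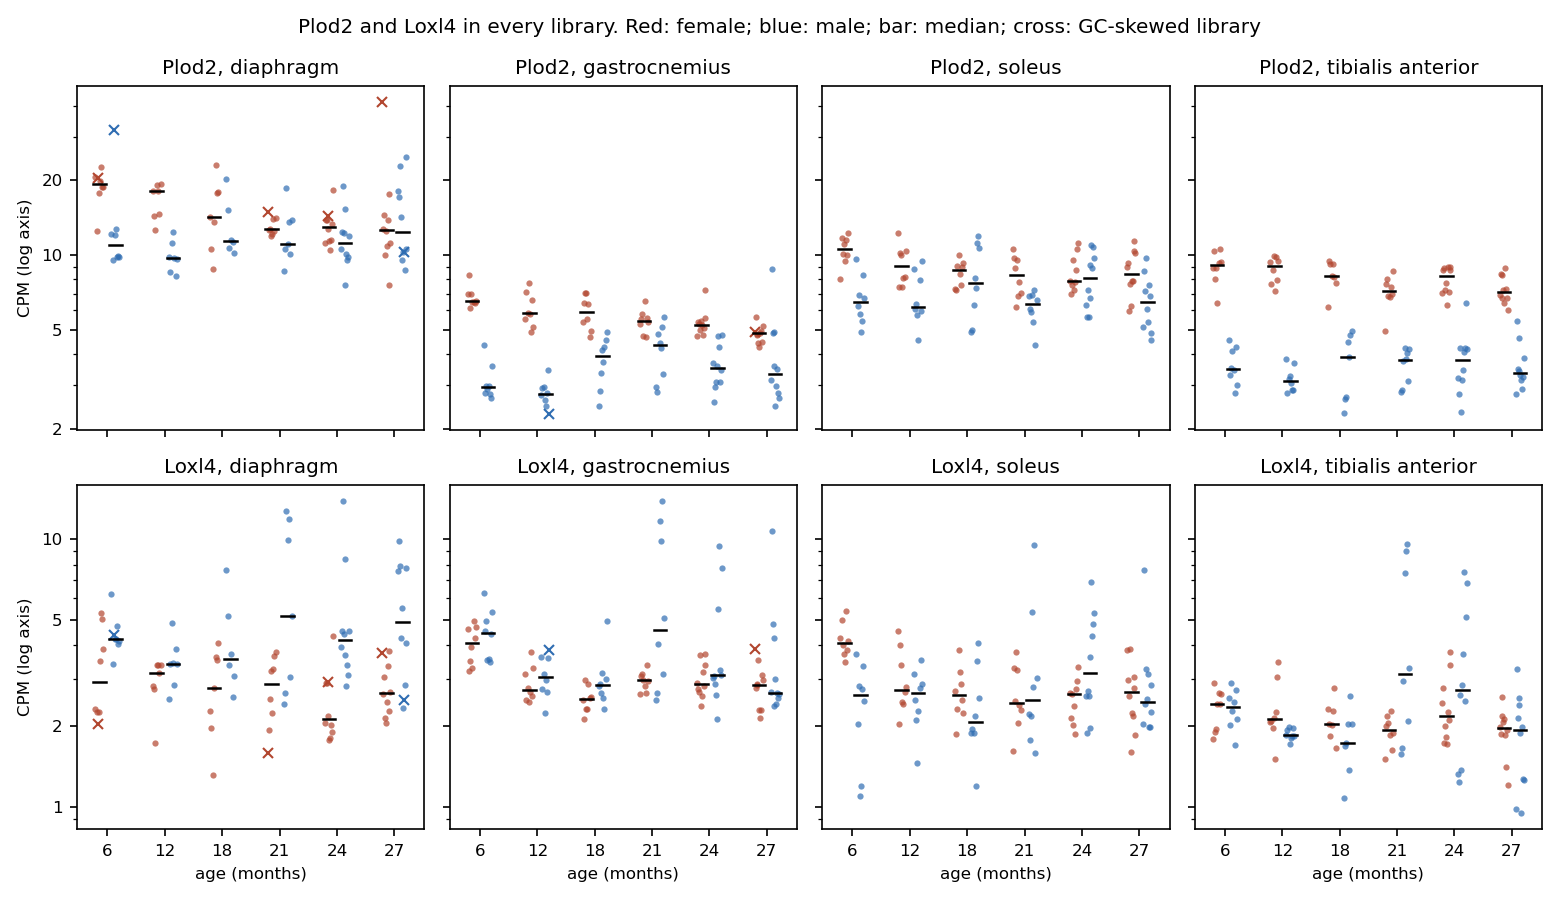
CPM of Plod2 and Loxl4 in every library by age in the 4 muscles, females in red and males in blue, with a bar at each group's median and a cross for GC-skewed libraries. Plod2 is higher in young females than in young males of the gastrocnemius (medians 6.53 and 2.94 CPM), and single male libraries of 21 months reach 13.9 CPM for Loxl4.

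At the ages in between, the female soleus had 0 genes called lower at 12 months (0.00651% of all genes were), 3 at 18 months (2.12%), 5 at 21 months (11.3%) and 4 at 24 months (11.3%). Those of 18 months were Loxl2, Loxl4 and Serpinh1. The female gastrocnemius had 1 at 12 months (Loxl4; 0.156%), 3 at 18 months (3.31%), 3 at 21 months (7.66%) and 3 at 24 months (9.04%). Without the GC-skewed library of that muscle the counts were 3 at 12 months (0.43%), 6 at 18 months (5.03%), 3 at 21 months (10.3%) and 3 at 24 months (12%), so that the count was highest at 18 months. Replicates 0 to 5 of that muscle at 18 months were among the liver-rich libraries, with liver markers at 162 to 319.3 CPM. The share of all genes called lower was also larger at 21 and 24 months than at 12 and 18 months in both muscles. In the female diaphragm 0 were called at 12 months (0%), 0 at 18 months (0.0865%), 1 at 21 months (1.02%) and 2 at 24 months (2.38%). There Lox fell at 21 months (-0.78 ± 0.19, adjusted p 0.0231) and 24 months (-0.69 ± 0.18, adjusted p 0.0232) and Loxl2 at 24 months (-0.62 ± 0.17, adjusted p 0.026). Without the GC-skewed libraries the female diaphragm had 0 calls at 12 months (0%), 1 at 18 months (0.39%), 3 at 21 months (2.6%) and 5 at 24 months (5.61%), P4ha1 and Serpinh1 among them. In males Loxl2 was called in the gastrocnemius at 18 months (-0.53, adjusted p 0.0135) and 24 months (-0.4, adjusted p 0.0213) but not at 21 months, and Plod1 was called at 21 and 24 months in both the soleus and the tibialis anterior.

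The calls above 0 at any age were both of P4ha2, in the female tibialis anterior. It had 10.2 to 13.5 CPM at 6 months (median 11) and 11.4 to 15 CPM at 21 months (median 13.7), with 6 of 8 libraries above every young one (0.28 ± 0.06, adjusted p 0.00186). At 24 months the change was 0.17 ± 0.06 (adjusted p 0.0373), and at 27 months it was 0.13 (adjusted p 0.131).

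With a fold change above 1.5 also required at any older age, 7 of the 80 combinations of gene, muscle and sex passed with Benjamini-Hochberg adjustment, and 8 without the GC-skewed libraries. The methods of the study name Bonferroni adjustment for its rule of this kind. With Bonferroni adjustment in edgeR 2 passed: Loxl4 in the female gastrocnemius at 18 months (-0.67, adjusted p 0.00266) and Loxl2 in the male tibialis anterior at 27 months (-0.66, adjusted p 0.0116). The counts that follow are with Benjamini-Hochberg adjustment. In females these were Lox and Loxl2 in the diaphragm (2 of 10, against 2.95% of all genes), Loxl4 in the gastrocnemius (1 of 10, against 9.44%), Lox and Loxl4 in the soleus (2 of 10, against 8.52%) and none in the tibialis anterior (9.25%). In males they were Loxl2 in the gastrocnemius (8.06%) and in the tibialis anterior (8.53%), and none in the diaphragm (11%) or the soleus (2.85%). All were lysyl oxidases; the further combination found without the GC-skewed libraries was Plod2 in the female diaphragm. Curves over the logarithm of age (a constant, a line and a logistic step, chosen by the Bayesian information criterion) kept 6 of the 7 as age-related, all falling. They were 1 gene each in the female diaphragm (Loxl2; 1.54% of all genes were age-related and falling there), female gastrocnemius (Loxl4; 1.16%), male gastrocnemius (Loxl2; 1.43%) and male tibialis anterior (Loxl2; 1.35%), and 2 in the female soleus (Lox and Loxl4; 2.98%). There were none in the female tibialis anterior (1.29%), the male diaphragm (1.54%) and the male soleus (0.443%). The curve was a line except for Loxl4 in the female gastrocnemius, an early step, and Loxl2 in the male tibialis anterior, a late one.

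Old males held single libraries with much Loxl4. At 21 months the 3 highest gastrocnemius libraries had 13.9 CPM (replicate 5), 11.7 CPM (replicate 3) and 9.79 CPM (replicate 4), and the 3 highest tibialis anterior libraries had 9.59, 9.03 and 7.44 CPM and carried the numbers 5, 4 and 3. In the soleus replicates 5 and 3 were highest (9.49 and 5.35 CPM), and in the diaphragm replicates 2, 4 and 3 (12.7, 11.9 and 9.92 CPM). At 24 months replicates 6 and 9 were the 2 highest in the gastrocnemius (9.38 and 7.82 CPM), the soleus (6.9 and 5.29 CPM) and the tibialis anterior (7.54 and 6.87 CPM), while the highest in the diaphragm were replicates 2 and 5 (13.9 and 8.45 CPM). At 27 months replicate 1 was highest in all 4 muscles, with 10.7 CPM in the gastrocnemius, 9.84 CPM in the diaphragm, 7.64 CPM in the soleus and 3.27 CPM in the tibialis anterior. The highest number was thus shared by the 3 limb muscles at 21 and 24 months but not by the diaphragm, and the labels do not say that a number stands for 1 mouse. The SD of log2 CPM of Loxl4 in the male tibialis anterior was 0.25 at 6 months and 1.08 at 21 months, and in the female tibialis anterior 0.26 and 0.2. For Lox, replicate 8 was highest in the male soleus (135 CPM) and tibialis anterior (92.8 CPM) at 24 months, and replicate 1 in the gastrocnemius (86.0 CPM) and soleus (86.3 CPM) at 27 months.

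Females and males of 6 months were compared in each muscle. Of the 10 genes, 2 were called higher in females in the gastrocnemius (9.13% of all genes were), 2 in the soleus (3.43%), 2 in the tibialis anterior (6.44%) and 0 in the diaphragm (0.247%), and none was called higher in males. In the diaphragm 1 gene was below an unadjusted p of 0.05. Plod2 was in all 3 limb muscle calls. In the tibialis anterior it had 6.41 to 10.6 CPM in females (median 9.1) and 2.79 to 4.58 CPM in males (median 3.49), without overlap (1.3 ± 0.13 higher in females, or 2.47-fold, adjusted p 2.38e-13). In the gastrocnemius the ranges were 6.15 to 8.29 and 2.67 to 4.36 CPM, also without overlap (1.13 ± 0.14, or 2.18-fold, adjusted p 5.2e-10). In the soleus they were 8.02 to 12.3 and 4.92 to 9.7 CPM, with 6 of 8 females above every male (0.66 ± 0.16, adjusted p 0.00256). In the diaphragm the difference of 0.49 was not called with all libraries (adjusted p 0.359) and was 0.79 (adjusted p 0.00888) without the GC-skewed ones. P4ha1 was higher in females in the gastrocnemius (0.23 ± 0.07, adjusted p 0.0136) and tibialis anterior (0.32 ± 0.08, adjusted p 0.00164), and Loxl4 in the soleus (0.82 ± 0.26, adjusted p 0.0324).

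Whether the sexes changed differently by 27 months was tested as the interaction of sex and age. In the gastrocnemius 2 of the 10 genes were called, where 1.6% of all genes were. The change of Plod2 was 0.86 lower in females than in males (-0.86 ± 0.19, adjusted p 0.00488): females went from a median of 6.53 to 4.85 CPM and males from 2.94 to 3.32 CPM. Females above every male were 8 of 8 at 6 and 12 months, 7 of 8 at 18 months, 2 of 8 at 21 months and 9 of 10 at 24 months. At 27 months they were 0 of 10, when male libraries ran from 2.48 to 8.83 CPM with a single one (replicate 1) above 4.92. The change of P4ha2 was 0.41 ± 0.11 higher in females (adjusted p 0.0282), where the level went from a median of 10.2 to 10.1 CPM, against 9.92 to 8.03 CPM in males; without the GC-skewed libraries that call was lost (adjusted p 0.0597). No gene of the set was called in the diaphragm (0% of all genes), the soleus (0.855%) or the tibialis anterior (1.73%), where 0, 3 and 2 of the 10 genes were below an unadjusted p of 0.05. In the tibialis anterior females kept a higher Plod2 at 27 months, with 10 of 10 above every male.

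Whether muscles changed differently from the gastrocnemius by 27 months was tested within each sex, and none of the 10 genes was called by edgeR. In females this held for the diaphragm (3.2% of all genes were called, and 2 of the 10 were below an unadjusted p of 0.05), the soleus (5.51%; 2) and the tibialis anterior (0.57%; 0). In males it held for the diaphragm (3.44%; 1), the soleus (0.594%; 0) and the tibialis anterior (0%; 0). The nearest was P4ha2 in the male diaphragm, with a difference in change of 0.5 (95% interval 0.17 to 0.84, adjusted p 0.0733). Without the GC-skewed libraries that difference was 0.42 (adjusted p 0.0954).

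The 3 fibrillar collagens taken as substrate genes changed by more than the enzymes. Other substrates changed less: Col4a1 (-0.34 to 0.25) and Eln (-0.57 to -0.04) were each called lower in 2 of 8 combinations. Col1a1, Col1a2 and Col3a1 encode the chains of the main fibrillar collagens of muscle, types I and III. At 27 against 6 months Col1a2 was called lower in 8 of 8 combinations of muscle and sex (-1.46 to -0.54), and Col1a1 (-1.63 to -0.61) and Col3a1 (-1.32 to -0.4) in 6 each. In the male gastrocnemius the mean of Col1a1 went from 275 to 88.1 CPM. The mean log2 level of each enzyme minus the mean of the 3 collagens was therefore higher at 27 than at 6 months in all 80 combinations, by 0.31 (Loxl4, female gastrocnemius) to 1.78 (Plod2, male gastrocnemius). For Loxl2 this difference was 0.36 (male diaphragm) to 1.03 (male soleus), and for Serpinh1 it was 0.7 (diaphragm of both sexes) to 1.16 (male gastrocnemius). These are descriptions without a test, and they follow from the larger change of these 3 collagens.

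**Figure D5:**
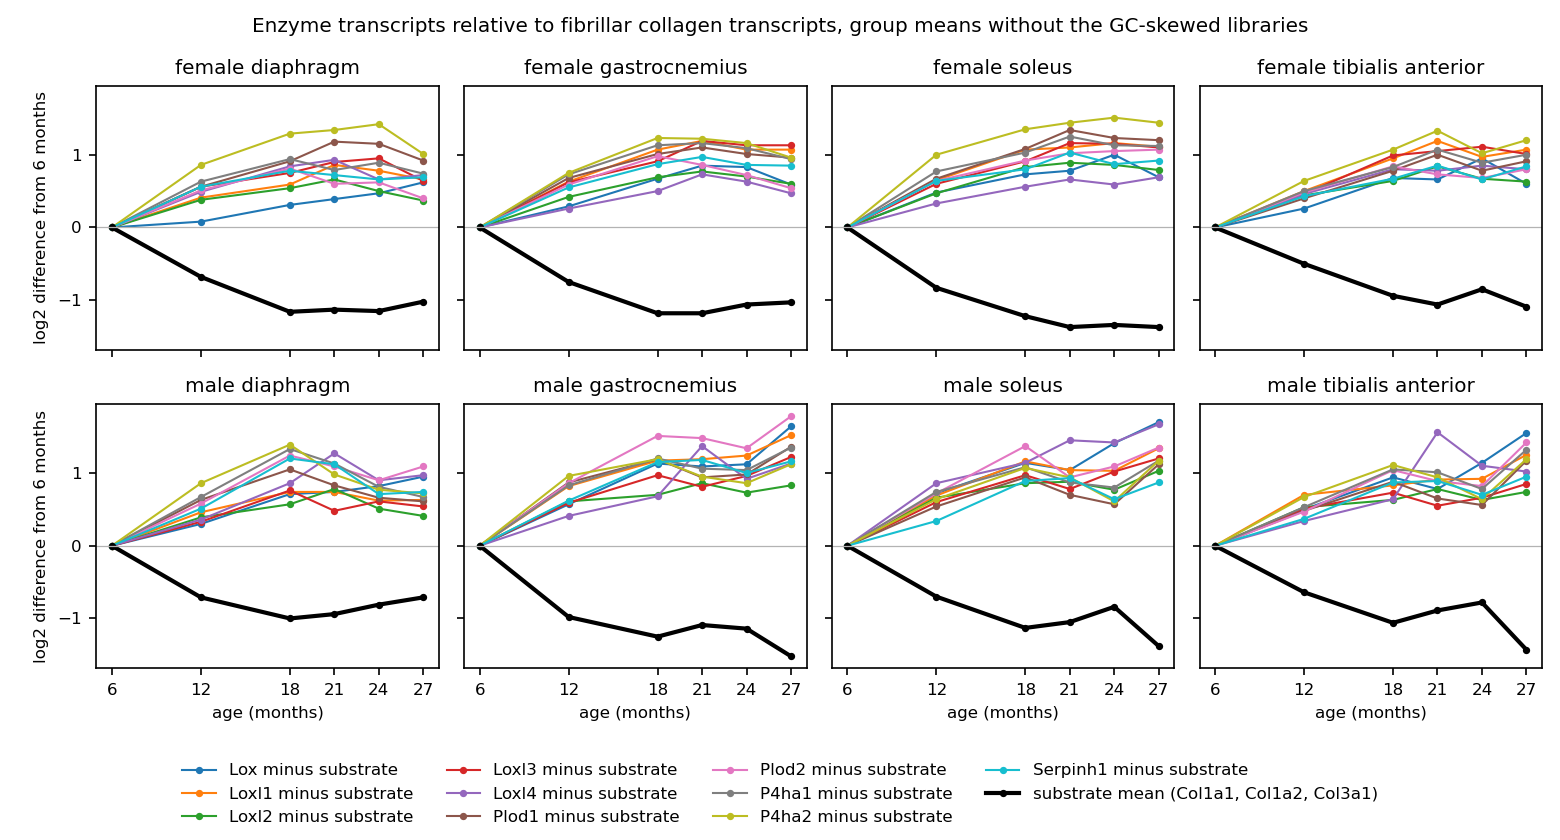
Difference from 6 months in the mean log2 level of each of the 10 genes minus the mean of Col1a1, Col1a2 and Col3a1, by age, for the 8 combinations of muscle and sex, without the GC-skewed libraries; a further line gives the mean of the 3 collagens itself. The enzyme lines end above 0 at 27 months in each panel, and the collagen line ends below 0.

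Other genes of the pathway, from lists of textbook members, are given as counts of tests at 27 against 6 months over the 8 combinations. Over all genes, 7.32% of 122668 tests were called lower and 8.01% higher. The 10 genes had 19 of 80 lower (23.8%) and 0 higher. Other collagen modifying enzymes and chaperones had 31 of 131 called lower and 11 higher; Sparc, which binds collagen outside the cell, was lower in 8 of 8 combinations and Colgalt2, a galactosyltransferase of hydroxylysine, in 7, while P4hb, the beta subunit of prolyl hydroxylase, was higher in 4 and lower in 1. Procollagen proteinases and enhancers had 24 of 63 called lower and 0 higher, with Adamts2 and Adamts3, which remove the amino-terminal propeptides, lower in 6 of 8 each. Fibrillar collagen chains had 46 of 88 lower (59 without the GC-skewed libraries, with 8 in place of 3 in the female diaphragm and 9 in place of 4 in the female gastrocnemius) and 1 higher, and network and other collagen chains 35 lower and 2 higher, led by Col6a1 (7 of 8). Elastic fibre genes had 31 of 136 lower and 5 higher, among them Fbn2 (lower in 4) and Ltbp2 (higher in 3). No set test was run on these lists.

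Further lists are given in the same way, beside 7.32% of tests lower and 8.01% higher over all genes. Hypoxia response genes had 12 of 118 called lower (10.2%) and 13 higher (Slc2a1 higher in 4 of 8, Ldha lower in 3). General chaperones of the endoplasmic reticulum had 1 of 104 lower (0.962%) and 25 higher, with Sdf2l1 higher in 4 combinations and Hspa5 in 3. The transforming growth factor beta pathway had 5 of 104 lower (4.81%) and 15 higher. The part of these pathways in the changes of the 10 genes was not tested.

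Marker genes of connective tissue cells moved in the same direction as the 10 genes. Of 12 fibroblast markers, 8 were called lower in the female gastrocnemius, 10 in the female soleus, 2 in the female tibialis anterior and 3 in the female diaphragm, and in males 8 in the gastrocnemius, 0 in the soleus, 8 in the tibialis anterior and 3 in the diaphragm. Without the GC-skewed libraries the diaphragm counts were 8 in females and 6 in males. Over all combinations they had 42 of 96 called lower (50 without those libraries) and 0 higher, and 8 tendon markers had 30 of 64 lower and 1 higher. The summed fibroblast markers ran from 1360 to 2090 CPM in the female soleus at 6 months and from 836 to 1450 CPM at 27 months, and from 891 to 1200 and 576 to 1010 CPM in the male tibialis anterior; none of the 12 was at 0. Endothelial markers had 9 of 64 lower and 4 higher, macrophage markers 3 and 7 of 64, adipocyte markers 0 and 2 of 56, mesothelial markers 0 and 1 of 24, liver markers 1 and 5 of 48, blood markers 0 and 2 of 37, and skeletal muscle fibre markers 9 and 10 of 80. The part of these cells in the changes of the 10 genes was not tested.

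Over the 48 group means of log2 CPM, which share muscles, Loxl1, Loxl2 and Serpinh1 ran together (Pearson's r 0.88 to 0.9). With the other 9 genes P4ha1 had r from -0.42 to 0.29 and Plod1 from -0.03 to 0.3, and P4ha2 ran against the lysyl oxidases (r of -0.77 with Lox, -0.81 with Loxl1). Without the GC-skewed libraries the r of Plod1 with Loxl2 went from 0.21 to 0.69. Among 14182 genes tested in every muscle and sex, the 3 most like Lox were Vcan (r = 0.916), Prg4 (0.893) and Aff2 (0.877). Those most like Loxl2 were Fam114a1, Il1rap and Olfml2b (0.952 to 0.965), and like Loxl1 Mfap4, Pcsk6 and Sod3 (0.981 to 0.982). Loxl3 ran with Thbs3, Pam and Fbn1 (0.953 to 0.96) and Serpinh1 with Tmem119, Twist1 and Mmp23 (0.961 to 0.965). Loxl4 had no gene above 0.741 (Fosl2, then Vasn and Pvrl1), and Plod1 none above 0.736 (Crip2). Plod2 ran with P2ry14, Slitrk4 and B430319G15Rik (0.92 to 0.926), P4ha1 with Ces1d (0.911), Pld2 (0.903) and Aebp1, and P4ha2 with Phb, Emg1 and Tpra1. Col3a1 had an r of 0.924 with Loxl2, 0.894 with Serpinh1 and -0.626 with P4ha2. The correlations are descriptions and carry no test.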

How the data were processed

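Total RNA of muscles kept in RNAlater was made into strand-specific libraries after removal of ribosomal RNA and sequenced in pairs. The authors counted reads per gene in ArrayStudio against mouse mm10, using gene models of their own built on RefSeq, and the program's version is not given in sources used here. They deposited 1 table of raw counts per library, without normalization. Symbols on more than 1 row (329 of 24458) were used once, which left out 0.0335% of counts; all 10 genes stand on 1 row. Groups were taken from the labels.

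Each muscle and sex was fitted with all ages by edgeR 4.0.16 in R 4.3.3 (filterByExpr, TMM scaling, quasi-likelihood test, Benjamini-Hochberg adjustment over all genes tested). Muscles at 6 months were fitted together, as were both sexes of a muscle and the 4 muscles of a sex for the interactions. Standard errors are of the log2 fold change. CPM values in text are on library totals scaled by TMM over all libraries. The GC comparison and the liver sums of single libraries are on unscaled totals. Curves were fitted to log2 CPM with a prior count of 0.5 on the logarithm of age, so a line is not a constant change per month. The margins in BIC were 6 (over a constant) and 2 (over a line), and a step was early below 12 and late above 21 months. The scripts were tested on simulated data.

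The alternatives were DESeq2 1.42.0, limma-voom (limma 3.58.1), no filter, the replicate number as a block, the run of sample numbers as a term, leaving out the 36 liver-rich libraries, Bonferroni adjustment, other fold limits and leaving out each library in turn. Leaving out the 8 GC-skewed libraries and the 2 liver-richest libraries was chosen after seeing the data. GC content was that of the longest GENCODE M21 transcript, held for 96.6% of 9469 genes compared. Replicate numbers were not used to pair the samples. Across muscles of the same sex and age, every same-numbered pair correlated above 0.1 in 1 of 72 comparisons. The closest library of the other muscle carried the same number in 158 of 599 cases, where chance gives about 1 per comparison. Pairing is thus not excluded.

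The genes and the lists were chosen with earlier results of these data known. All 10 are named, with 3 substrate collagens, the 3 genes most like each over the 48 groups and, of each other list, up to 4 genes called in most of the 8 combinations with the largest change. Libraries are single mice by the study's description; p-values measure the spread between them. At these depths that spread, more than counting error, sets the precision.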

Additional observations from a re-analysis of the deposited data

Results flagged for a closer look

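Each of the 10 genes was looked at in each group of 8 or 10 libraries at 6 and 27 months, which gave 160 sets. In 36 of them the highest or lowest library stood far from the nearest of the others for the set's range (Dixon's test). Chance gives about 1 in 20 for a single set, but genes share libraries, so the sets are not independent. Of the 36, 26 came from GC-skewed libraries and 10 from others.

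In the male diaphragm of 6 months, replicate 2, a GC-skewed library, was high for Lox (78.2 CPM) and Plod2 (31.8) and low for Loxl1 (4.48), Loxl3 (0.865), Plod1 (2.62), P4ha2 (2.07) and Serpinh1 (46.7). In the male diaphragm of 27 months, replicate 6 was low for Loxl1 (5.26) and Plod1 (6.31). In the female diaphragm of 6 months, replicate 2 was low for Loxl1 (5.6), Loxl3 (1.48), Plod1 (3.92), P4ha2 (2.5) and Serpinh1 (31.6). In that of 27 months, replicate 0 was high for Lox (66.8), Plod2 (41.5) and P4ha1 (46.5) and low for Loxl1 (6.33), Plod1 (3.88), P4ha2 (2.25) and Serpinh1 (39.0). In the female gastrocnemius of 27 months, replicate 0, skewed the other way, was high for Loxl1 (37.4), Loxl3 (5.93), Plod1 (53.2), P4ha2 (15.1) and Serpinh1 (85). Transcripts of Lox and Plod2 hold 43.9% and 43.0% GC, and those of Loxl1, Plod1 and Serpinh1 61.0%, 52.7% and 56.4%.

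Among libraries not GC-skewed, Lox was high in the male diaphragm of 27 months, replicate 8 (131, next 59.8), and in the male tibialis anterior of 6 months, replicate 2 (38.2, next 22.9). Loxl4 was high in replicate 1 of 27 months in the male gastrocnemius (10.7, next 4.83) and soleus (7.64, next 3.26). Loxl1 was low in the male tibialis anterior of 27 months, replicate 8 (5.48), Plod1 in the male soleus of 6 months, replicate 7 (23.8), and Plod2 in the female diaphragm of 6 months, replicate 1 (12.5). Plod2 was high in the female gastrocnemius of 6 months, replicate 1 (8.29), P4ha2 in the male soleus of 27 months, replicate 2 (10.3), and Serpinh1 in the female tibialis anterior of 6 months, replicate 5 (57.0).

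The change from 6 to 27 months in the gastrocnemius differed between the sexes (edgeR, sex by age term) for Plod2 (-0.86 in females relative to males, adjusted p 0.00488) and P4ha2 (0.41, adjusted p 0.0282). The second was not called without the GC-skewed libraries (adjusted p 0.0597) or with the replicate number as a block (adjusted p 0.0684).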

How the results depend on the processing

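The 19 calls at 27 against 6 months became 2 with Bonferroni adjustment and 4 with a fold change above 1.5, and 17 to 21 when single libraries were left out; DESeq2 and fits without a filter gave 19, limma-voom 22. The 7 combinations differentially expressed at any older age became 2 with Bonferroni adjustment and 18 with the lower fold limit. With Bonferroni adjustment the 46 calls between muscles became 25, the 6 between the sexes 2 and the 2 interactions of sex and age 0. These interactions became 1 under the replicate block and 1 without the GC-skewed libraries, in each case that of P4ha2 being lost. The interaction of muscle and age gave 1 call without the liver-rich libraries, P4ha2 in the male diaphragm (0.58, adjusted p 0.0258). Without the GC-skewed libraries this interaction was 0.42 and was not called (edgeR, adjusted p 0.0954). The direction turned for Plod1 between soleus and diaphragm (-0.11 without the GC-skewed libraries). The replicate block cannot give a difference between the sexes at 6 months, because its numbers were coded within each sex. The value of 0.46 it returned for P4ha2 in the gastrocnemius is thus not a difference between the sexes. With the replicate block 20 genes were called lower at 27 months, 47 calls were made between muscles and 0 for the interaction of muscle and age. Ages are separate mice, so a number cannot pair them. Across muscles of the same sex and age the correlations of same-numbered libraries had medians from -0.0612 to 0.206 over 72 comparisons. Of 599 pairs, 160 were above 0.1, and in 158 the library with the same number was the closest of the other muscle. The data thus do not settle whether a number stands for 1 mouse. If it does in some muscles, p-values between muscles treat libraries of 1 mouse as independent. All ages were collected from separate mice, and each age group on its own day, so cohort, day of collection and age cannot be told apart. Depth was lowest for Loxl3 and Loxl4, with at least 33 and 51 counts in every library.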
